A study of Saccharomyces cerevisiae with 8 samples.

Results

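Of the 5656 yeast genes that a probe set of the array names without ambiguity, 9 were examined here because their messenger RNAs are known to carry upstream open reading frames: GCN4, HOL1, SCH9, RCK1, CLN3, DCD1, FOL1, SCO1 and MBR1. They were found by their symbols in the platform annotation, which gave 13 probe sets among the 9275 tested, 5 of them for FOL1 and 1 for each other gene. An array of the YG_S98 type reports RNA abundance only, so nothing below measures translation.

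The samples were 8 cultures of haploid budding yeast, Saccharomyces cerevisiae, from a background labelled W303a. In both groups the genes HYP2 and ANB1, which encode yeast eIF5A, are described as disrupted, and the cells carry human EIF5A1 on a plasmid. The control group (WT, 4 arrays) carries the wild-type human protein and is described as growing like strains with native HYP2. The other group (V81G, 4 arrays) carries the point mutant V81G and is described as temperature sensitive. All cultures were grown at 25 °C, which is permissive for the mutant, and harvested early in logarithmic growth, and 6 µg of total RNA went into each labelling. The sources used here do not name the promoter of the plasmid gene. The series design speaks of 4 isogenic strains per group.

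An upstream open reading frame is a short reading frame in the leader of a messenger RNA, ahead of the main protein-coding frame. Scanning ribosomes can start there, stop at its end, and then leave or resume scanning, so such a frame usually lowers and sometimes regulates the output of the main frame. Because its stop codon lies far from the end of the message, the cell can treat it as premature and degrade the RNA by nonsense-mediated decay, although several such messages, GCN4 among them, are protected. eIF5A carries the modified residue hypusine and helps ribosomes past difficult peptide bonds and through termination, and it has been tied to HOL1 directly: its upstream frame ends in a stall that polyamines promote by interfering with eIF5A.

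Some facts of the series bear on the labels. HYP2 read 15.42 ± 0.01 (SD, n = 4) on the log2 scale in WT and 12.02 ± 0.23 (n = 4) in V81G, although both groups are described as lacking it, and WT replicates 3 and 4 read 15.43, close to the table's maximum. ANB1, also described as disrupted, read 14.04 ± 0.13 (n = 4) in WT and 14.18 ± 0.20 (n = 4) in V81G. The groups are therefore named by their labels only. The label W303a names mating type a, but of 7 a-cell genes 5 (STE2, STE6, BAR1, ASG7 and AGA2) had WT means below 9.03, the 25th percentile of probe-set means, used here as the limit for dim signal, while the a-pheromone genes MFA1 and MFA2 averaged 10.42 and 11.40 there. Of 4 alpha-cell genes MF(ALPHA)1, STE3 and SAG1 averaged 14.47, 11.21 and 11.40 in WT, and MF(ALPHA)2 was dim at 8.80. Among 259 measured genes of chromosome VIII, which holds SCH9 and DCD1, 107 rose in V81G (41.3%) and 5 fell (1.93%), with a median difference of 0.46 against -0.09 over the other nuclear chromosomes. Hybridization took place on 2 days, with replicates 1 and 2 of both groups on the first (day 1) and replicates 3 and 4 on the other (day 2). On day 1 both V81G arrays ran on fluidics station 2 and both WT arrays on station 1, so station and label cannot be told apart on that day.

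Differences are log2 values of V81G minus WT, and a gene was called to have risen or fallen at a limma adjusted p under 0.05 (Benjamini-Hochberg over all 9275 probe sets). Of the 9 genes 2 rose, HOL1 and SCH9, none fell and 7 did not pass the test. Over all 5656 genes 21.5% were called, 9.21% upward and 12.3% downward, so 2 of 9 is close to the background. The balance of rises and falls over the whole table depends on what is counted and on the scaling: of all called probe sets 51% rose in the reported fit, 46.1% after centring arrays on their median and 58.4% after centring by chromosome. By the brightest probe set, HOL1 and SCH9 were also the only ones of the 9 whose arrays did not overlap between the labels, a separation seen in 28.1% of all genes. The median difference of the 9 was -0.06, beside -0.08 over all genes, and without regard to sign it was 0.55 beside 0.28. The latter was not tested. SCH9 and DCD1, both on chromosome VIII, entered it with 0.68 and 0.61, and centring by chromosome left them 0.18 and 0.10. With the hybridization day as a block 4 of the 9 were called (HOL1, SCH9, DCD1 and MBR1), against 30.7% of all genes. At an unadjusted p under 0.05 there were also 4 (HOL1, SCH9, DCD1 and SCO1), where 36% of all genes were.

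**Figure D1:**
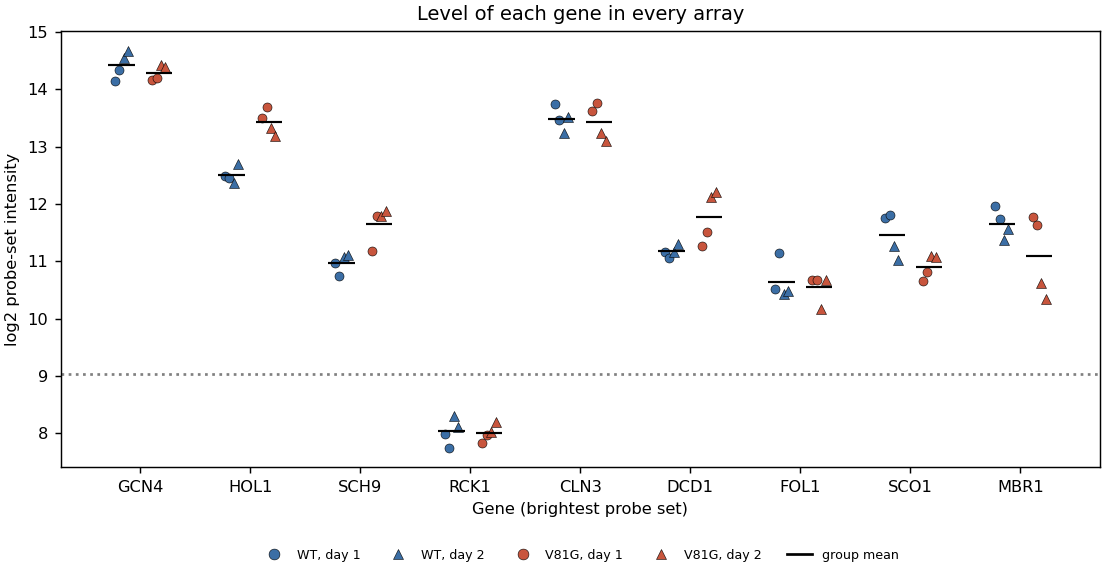
Log2 probe-set intensity (y axis) of the 9 genes (x axis, brightest probe set each) in every array, with WT in blue, V81G in red, circles for day 1, triangles for day 2 and bars for group means; the dotted line is the dim limit of 9.03. The V81G arrays of HOL1 and SCH9 all lie above their WT arrays, and RCK1 lies under the limit in all 8.

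HOL1 (YNR055C, chromosome XIV) encodes a plasma membrane transporter that takes up polyamines. It was the member with the largest difference and nearly doubled in V81G. Its log2 intensity was 12.49, 12.45, 12.37 and 12.69 in WT replicates 1 to 4 and 13.50, 13.68, 13.32 and 13.19 in V81G replicates 1 to 4. The lowest V81G array thus stood clear of the highest WT array. The difference was 0.92 ± 0.14 (SE; 95% interval 0.60 to 1.24; 1.90-fold; adjusted p = 0.0021), with all 4 V81G arrays higher. In a bulk culture, more RNA per cell and a larger share of expressing cells cannot be told apart. It was 1.12 on day 1 and 0.72 on day 2. HOL1 did not reach 2-fold in the reported fit, and a call that also asks for that size leaves it out. It passed the adjusted p in each of the 22 alternative fits of its difference, which gave 0.72 to 1.12 and adjusted p-values of 4.7e-04 to 0.034. The 5 measured genes on either side of it had a median difference of 0.04, and none reached the value of HOL1. BIO3 rose by 0.71 and POP2 fell by 0.79 there, and the other 8 did not pass.

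The polyamine genes around Hol1 showed no common direction. Of 13 measured, 2 rose, none fell and 11 did not pass, with a median of -0.12. Over all genes 9.21% rose and 12.3% fell. DUR3, which imports urea and polyamines and lies on chromosome VIII, rose by 2.91 ± 0.16 (adjusted p = 7.7e-06), and TPO4, a polyamine exporter, rose by 0.98 ± 0.24 (adjusted p = 0.021). The synthesis genes SPE1, SPE2, SPE3 and SPE4 differed by 0.36, -0.18, -0.24 and 0.20 without passing (adjusted p = 0.20, 0.40, 0.57 and 0.53). OAZ1, the antizyme gene, whose translation depends on polyamine-stimulated frameshifting, differed by -0.14 (adjusted p = 0.74). By the mean absolute distance between centred log2 profiles over the 8 arrays, the genes most like HOL1 were MTC2 (0.05), BZZ1 (0.08) and AKR2 (0.09), where the median distance of all genes was 0.51. These are descriptions of profile shape.

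SCH9 (YHR205W, chromosome VIII) encodes a protein kinase that acts below the nutrient-sensing complex TORC1. The WT arrays read 10.98, 10.74, 11.08 and 11.11 and the V81G arrays 11.17, 11.78, 11.79 and 11.88. The groups did not overlap, but V81G replicate 1 lay only just above the highest WT array and apart from the other V81G arrays. SCH9 rose by 0.68 ± 0.18 (95% interval 0.29 to 1.07; 1.60-fold; adjusted p = 0.025). Its difference was 0.62 on day 1, where it did not pass alone (adjusted p = 0.18), and 0.74 on day 2 (adjusted p = 0.017). The difference was 0.90 on station 1 (adjusted p = 0.012) and 0.37 on station 2, which sets V81G arrays of day 1 against a single WT array of day 2. On station 1 the V81G arrays are all of day 2 and the WT arrays of both days, so label and day are mixed in both values. The call was lost without V81G replicate 2, 3 or 4 or without WT replicate 1 or 2 (adjusted p = 0.058 to 0.070), and it was stronger without V81G replicate 1 (0.84, adjusted p = 0.0054). It was also lost when each array was centred by chromosome, where the difference was 0.18 ± 0.14 (adjusted p = 0.47).

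The neighbourhood of SCH9 was high as well. Among the 5 measured genes on either side 8 rose and none fell, with a median difference of 0.87, and 6 of the 10 differed by more than SCH9 itself. SCH9 ranked 89 among the 259 genes of its chromosome. Its closest profile in the whole table was that of the adjacent gene SKN7 (distance 0.07; 0.65 ± 0.16, adjusted p = 0.021), a stress-response transcription factor, followed by COG1 (0.07) and MET10 (0.07), where the median distance was 0.45. The part of the chromosome-wide shift in the SCH9 difference cannot be told apart from a change of SCH9 alone with these arrays.

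Of 25 measured genes around Sch9 and TORC1, 2 rose, 2 fell and 21 did not pass, with a median of -0.01. The share called over all genes was 21.5%. KOG1, which encodes a TORC1 subunit and also lies on chromosome VIII, rose by 1.12 ± 0.16 (adjusted p = 0.0014), and GTR1, a GTPase gene upstream of TORC1, rose by 0.41 ± 0.12 (adjusted p = 0.044). TPK3, a catalytic subunit of protein kinase A, fell by 0.54 ± 0.14 (adjusted p = 0.026). The kinase gene TOR1 fell by 0.75 ± 0.12 in its brightest probe set (adjusted p = 0.0030), but its 9 probe sets ranged from -0.93 to 0.16, and 3 of them fell.

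**Figure D2:**
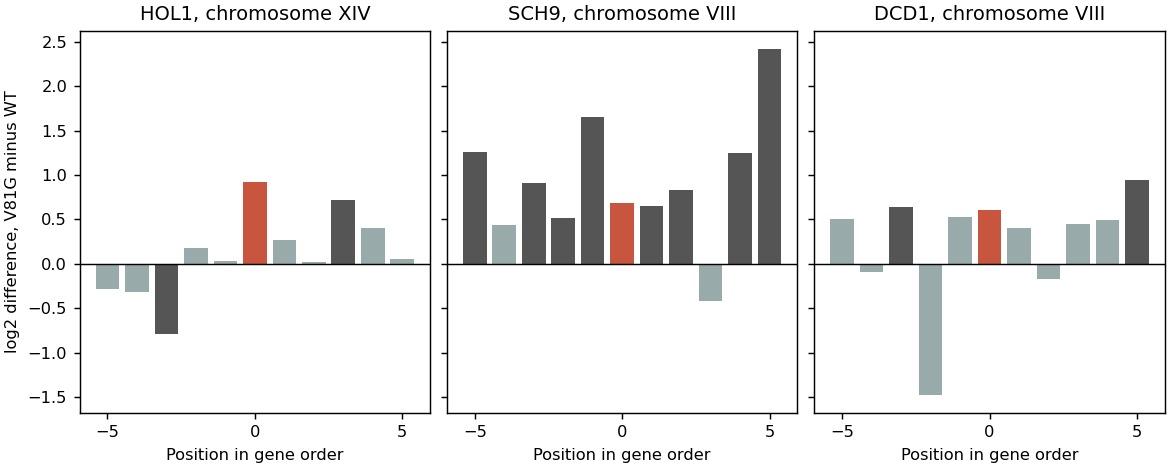
Log2 difference V81G minus WT (y axis) of HOL1, SCH9 and DCD1 (red) and of the 5 measured genes on either side in chromosomal order (x axis, steps from the gene); dark bars passed at adjusted p under 0.05 and pale bars did not. HOL1 stands above all its neighbours, whereas 6 of the 10 genes around SCH9 exceed it.

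DCD1 (YHR144C), the other member on chromosome VIII, encodes deoxycytidylate deaminase, which supplies the precursor of thymidylate. Its WT arrays were close together, at 11.16, 11.06, 11.16 and 11.30, while its V81G arrays read 11.26, 11.50, 12.13 and 12.22. Only V81G replicate 1 fell within the WT range. The difference, 0.61 ± 0.21 (95% interval 0.13 to 1.08), did not pass (adjusted p = 0.083). It was 0.27 on day 1 and 0.94 on day 2, and the change between days did not pass (0.66 ± 0.21, adjusted p = 0.19). Fitting the hybridization day as a block brought DCD1 past the threshold (adjusted p = 0.017), as did a replicate block (adjusted p = 0.049). It was called in 7 of 22 alternative fits. These include day 2 alone (adjusted p = 0.010) and the fit without V81G replicate 1 (adjusted p = 0.026), but not day 1 alone (adjusted p = 0.35). Centring by chromosome left a difference of 0.10 (adjusted p = 0.78). Its 10 neighbours had a median of 0.47, close to the chromosome's 0.46.

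Calls among other genes of deoxynucleotide supply were mostly falls. Of 11 measured, 4 fell, 1 rose and 6 did not pass, with a median of -0.68. All genes had 12.3% falls and 9.21% rises. URA8, a CTP synthase gene, fell by 1.01 ± 0.18 (adjusted p = 0.0042), and the ribonucleotide reductase gene RNR2 fell by 0.92 ± 0.13 (adjusted p = 0.0013). RNR4 and the dUTPase gene DUT1 fell by 0.82 and 0.68 (adjusted p = 0.014 and 0.015). RNR3, the damage-inducible large subunit of the same reductase, rose by 0.55 ± 0.16 (adjusted p = 0.041).

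GCN4 (YEL009C, chromosome V) encodes the activator of amino acid synthesis genes and is the best-studied case of control by upstream frames: starvation lowers active eIF2, and ribosomes then bypass the inhibitory frames. Its RNA was among the brightest of the table (97.8th percentile of probe-set means). It read 14.15, 14.34, 14.54 and 14.66 in WT and 14.16, 14.20, 14.41 and 14.38 in V81G. The groups overlapped, and in both labels the day 2 arrays were the higher ones. The difference was -0.13 ± 0.14 (95% interval -0.46 to 0.19; adjusted p = 0.61), with -0.06 and -0.20 on the 2 days. When the arrays were quantile-normalized once more it became 0.06 (adjusted p = 0.80), so it has no settled direction.

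Calls among the targets of Gcn4 were mostly falls. Of 25 measured amino acid synthesis genes 14 fell, 1 rose and 10 did not pass, with a median of -0.79 (-0.56 on day 1 and -0.78 on day 2). Falls made up 12.3% of all genes and rises 9.21%. The arginine synthesis gene ARG1 fell by 2.08 ± 0.33 (adjusted p = 0.0026) and the histidine synthesis gene HIS4 by 1.70 ± 0.19 (adjusted p = 4.1e-04). SER3, of serine synthesis, rose by 2.02 ± 0.18 (adjusted p = 9.3e-05), from a WT mean under the dim limit (8.61). Among 14 genes of the eIF2, eIF2B and Gcn2 pathway, which sets GCN4 translation, SUI2 alone was called: this gene of the eIF2 alpha subunit fell by 0.52 ± 0.14 (adjusted p = 0.033). The list's median was -0.26. Among 14 measured factors of scanning and start codon choice TIF34, an eIF3 subunit gene, was the only call and fell by 0.54 ± 0.16 (adjusted p = 0.044). The 14 differences ran from -0.54 to -0.07. Beside the single call in each of these lists, 21.5% of all genes were called. The day block called 2 genes of the eIF2 list (SUI2 and GCD1) and 3 of the scanning list (TIF34, TIF11 and FUN12), all of them lower in V81G. It called 30.7% of all genes, so neither count exceeds the background.

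CLN3 (YAL040C, chromosome I) encodes the G1 cyclin that starts the cell cycle, and its upstream frame limits Cln3 protein in poorly growing cells. The WT arrays read 13.73, 13.46, 13.24 and 13.51 and the V81G arrays 13.62, 13.76, 13.24 and 13.09. Both groups covered much the same range. The difference was -0.06 ± 0.18 (95% interval -0.46 to 0.34; adjusted p = 0.88), with opposite signs on the days (0.10 and -0.21) and a sign that turned under further scalings (0.15 after renewed quantile normalization, 0.03 after centring by chromosome). Of 14 genes around Cln3, 2 fell and 12 did not pass, with a median of -0.22, where 12.3% of all genes fell. PCL1, a cyclin gene switched on at Start, fell by 0.95 ± 0.16 (adjusted p = 0.0034), to a V81G mean under the dim limit (8.57), and WHI3, whose protein binds CLN3 RNA, fell by 0.46 ± 0.13 (adjusted p = 0.041).

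**Figure D3:**
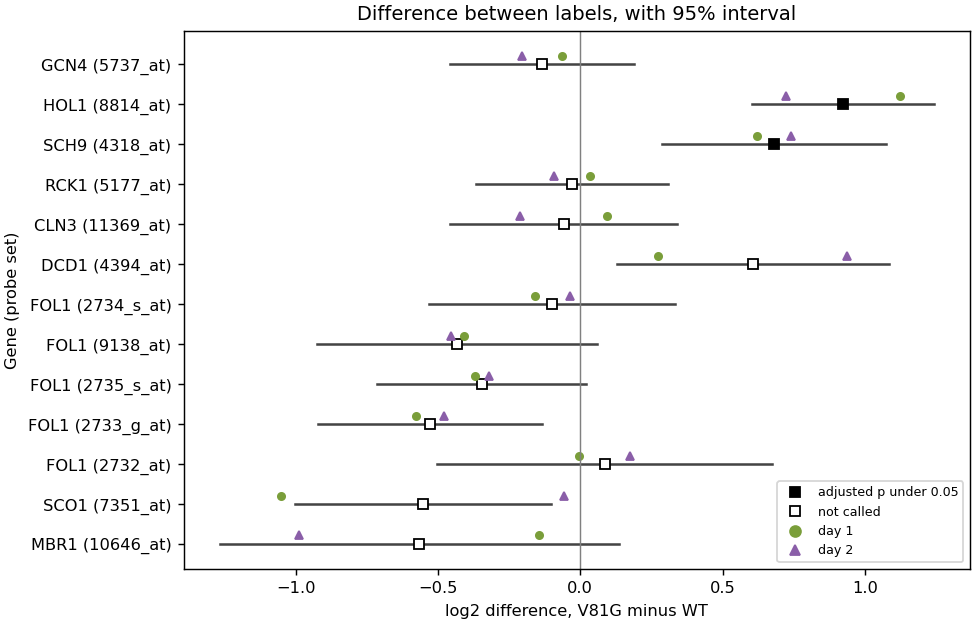
Log2 difference V81G minus WT (x axis) of all 13 probe sets (y axis) as squares with 95% intervals, filled where the adjusted p was under 0.05, with the differences within day 1 (circles) and day 2 (triangles) above each. HOL1 and SCH9 are the filled squares; the days lie far apart for SCO1 (-1.05 and -0.06), MBR1 (-0.14 and -0.99) and DCD1 (0.27 and 0.94).

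SCO1 (YBR037C, chromosome II) encodes an inner membrane protein of mitochondria that delivers copper to cytochrome c oxidase. Its intensity was 11.76, 11.81, 11.27 and 11.01 in WT and 10.66, 10.81, 11.09 and 11.08 in V81G. WT replicates 1 and 2 were the highest of the 8 arrays, while on day 2 the labels met. The difference was -0.55 ± 0.20 (95% interval -1.004 to -0.10; adjusted p = 0.092). It was -1.05 on day 1, where it passed (adjusted p = 0.015) but station and label cannot be told apart, and -0.06 on day 2. The change between days, 1.00 ± 0.21, did not pass (adjusted p = 0.070), where 1.86% of all genes did. Without WT replicate 4 SCO1 passed (-0.70, adjusted p = 0.040). With the fluidics station as a block it was -0.44 (adjusted p = 0.084), and with day and station as blocks -0.42 (adjusted p = 0.024). Within a label and day only WT replicates 3 and 4 differ in station, so the station term also takes up part of the change between days. The 5 measured genes on either side of SCO1 had a median of -0.40, beside -0.11 over the chromosome. Of these 10 genes 4 fell and none rose, where 12.3% of all genes fell.

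Among 13 measured partners in copper delivery and oxidase assembly 8 fell, 1 rose and 4 did not pass. Over all genes 12.3% fell and 9.21% rose. The median of the 13 was -0.61 (-0.74 on day 1 and -0.48 on day 2). COX17, the copper carrier that hands copper to Sco1, fell by 1.14 ± 0.26 (adjusted p = 0.015) (-1.77 on day 1 and -0.50 on day 2), and the assembly gene PET117 fell by 0.98 ± 0.24 (adjusted p = 0.018). COX19, another small assembly protein of the intermembrane space, rose by 0.79 ± 0.20 (adjusted p = 0.021).

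MBR1 (YKL093W, chromosome XI) encodes a protein linked to mitochondrial function whose excess rescues growth of hap mutants. It varied most of the 9 genes, with an SD of 0.71 among the V81G arrays, where the median gene had 0.22. The WT arrays read 11.96, 11.74, 11.38 and 11.56 and the V81G arrays 11.77, 11.63, 10.61 and 10.35. On day 1 the labels overlapped, and on day 2 both V81G arrays were lower. The difference was -0.57 ± 0.31 (95% interval -1.27 to 0.13; adjusted p = 0.27), with -0.14 on day 1 and -0.99 on day 2. MBR1 passed under the day block (adjusted p = 0.045) and within day 2 (adjusted p = 0.014), and the change between days did not pass (-0.84 ± 0.23, adjusted p = 0.13). Leaving out V81G replicate 4 reduced the difference to -0.32, and without other single arrays it was -0.41 to -0.79. It was -1.21 on station 1 (adjusted p = 0.012), 0.14 on station 2 and -0.68 with day and station as blocks (adjusted p = 0.0047). Within a label and day only WT replicates 3 and 4 ran on different stations. The station term of that fit therefore also takes up part of the change of the difference between days, and its p-value cannot be separated from that change. Station 2 holds V81G arrays of day 1 and a WT array of day 2, so label and day cannot be told apart there. On station 1 the V81G arrays are all of day 2. Its WT arrays are replicates 1 and 2 of day 1 and replicate 3 of day 2, so the day enters that difference as well. None of the 10 measured HAP, RTG and related genes passed limma's test, where 21.5% of all genes did, and the list's median was -0.01. Of the 10, 4 had an unadjusted p under 0.05 (ISF1, HAP3, HAP5 and RTG2), where 36% of all genes did. The day block called ISF1, HAP3 and HAP5, where it called 30.7% of all genes.

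FOL1 (YNL256W, chromosome XIV) encodes a folate synthesis enzyme with several activities. It was read by 5 probe sets, and those with the suffixes _s_at and _g_at can hold probes that match more than 1 sequence of the array design. The brightest, 2734_s_at, read 10.52, 11.15, 10.44 and 10.48 in WT and 10.68, 10.67, 10.17 and 10.67 in V81G, with a difference of -0.10 ± 0.19 (adjusted p = 0.80). Both groups held a stray array there, a high one in WT and a low one in V81G. The next, 9138_at, differed by -0.43 ± 0.22 (adjusted p = 0.23), and both the day block (adjusted p = 0.035) and the replicate block (adjusted p = 0.040) brought a call. Without WT replicate 4 it was -0.26, and it was 0.0017 on station 1 and -1.21 on station 2. On station 1 the V81G arrays are all of day 2 and the WT arrays mostly of day 1. Station 2 sets V81G arrays of day 1 against a single WT array of day 2. Label and day are therefore mixed in both values. In the station 2 fit 2732_at went the other way, at 0.74. The probe set 2733_g_at had all V81G arrays (9.42, 9.19, 9.02 and 9.44) below all WT arrays (9.59, 10.17, 9.51 and 9.91), at -0.53 ± 0.18 without passing (adjusted p = 0.068), and was called under the day block (adjusted p = 0.047), after centring arrays on their median (-0.57, adjusted p = 0.040) and after renewed quantile normalization (-0.56, adjusted p = 0.046). 2735_s_at differed by -0.35 ± 0.16 (adjusted p = 0.19) and 2732_at by 0.09 ± 0.26 (adjusted p = 0.88), with a WT mean of 8.68 under the dim limit. None of the 5 passed in the reported fit, 4 had negative differences, and the gene has no agreed size.

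The FOL1 probe sets also moved apart with the day. From day 1 to day 2 the signal of 9138_at was higher by 0.57 in WT and by 0.53 in V81G, while that of 2732_at dropped by 0.75 and 0.57. Of 14 folate and one-carbon genes 5 fell and 9 did not pass, with a median of -0.30, where 12.3% of all genes fell. MET13, a methylenetetrahydrofolate reductase gene, fell by 1.22 ± 0.12 (adjusted p = 2.2e-04), and DFR1, which encodes dihydrofolate reductase, fell by 0.70 ± 0.18 (adjusted p = 0.026). MTD1, SHM1 and ADE3 fell by 0.66, 0.61 and 0.59 (adjusted p = 0.024, 0.030 and 0.046).

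**Figure D4:**
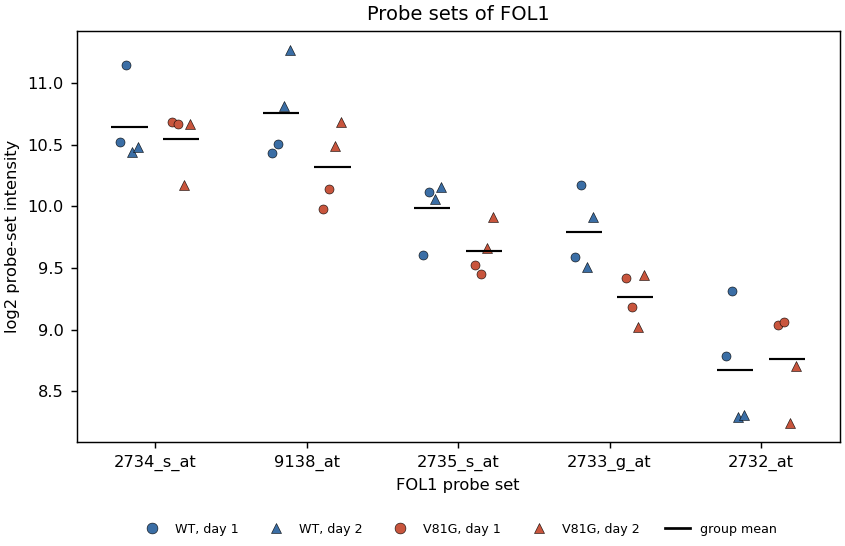
Log2 intensity (y axis) of the 5 FOL1 probe sets (x axis) in each array, WT in blue and V81G in red, circles for day 1 and triangles for day 2, with bars at group means. Only 2733_g_at separates the labels, and the day moves 9138_at up and 2732_at down in both.

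RCK1 (YGL158W, chromosome VII) encodes a protein kinase of the oxidative stress response. It was dim in every array, at 7.99, 7.75, 8.31 and 8.11 in WT and 7.83, 7.97, 8.03 and 8.21 in V81G. The labels overlapped, and all 8 values lay under 9.03, where background can hide a difference. The difference was -0.03 ± 0.15 (95% interval -0.37 to 0.31; adjusted p = 0.93) and had no settled sign (0.03 on day 1, -0.09 on day 2, 0.05 after centring by chromosome). Of 14 genes of Hog1 and stress signalling 3 rose, 1 fell and 10 did not pass, with a median of -0.18. Rises made up 9.21% of all genes and falls 12.3%. The kinase genes SLT2 and SSK22 rose by 1.22 ± 0.18 (adjusted p = 0.0018) and 0.67 ± 0.16 (adjusted p = 0.016), and SKN7 is the other rise. SLT2 and SKN7 lie on chromosome VIII. YPD1, the phosphorelay protein gene upstream of Ssk1, fell by 0.62 ± 0.15 (adjusted p = 0.019).

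Paralogs were compared with 3 of the members by the log2 ratio within each array. The ratio of RCK1 to RCK2, a kinase gene whose product Hog1 phosphorylates, changed by 0.29 from WT to V81G, that of SCO1 to SCO2 by -0.38 and that of MBR1 to ISF1 by 0.23. The exact permutation tests of these changes gave adjusted p = 0.34, 0.34 and 0.54 over the 3 pairs (two-sided, 4 against 4 arrays, smallest possible unadjusted p = 0.029). After adjustment over 3 pairs, a single pair with fully separate groups could not pass 0.05, so these tests cannot decide whether 1 pair changed. RCK2 itself differed by -0.32 ± 0.14 (adjusted p = 0.17) and SCO2 by -0.18 ± 0.15 (adjusted p = 0.50). ISF1 read 11.18, 11.23, 12.08 and 12.28 in WT and 10.88, 11.03, 10.83 and 10.84 in V81G. Its groups did not overlap, and its difference of -0.79 ± 0.25 missed the threshold (adjusted p = 0.053), with -0.25 on day 1 and -1.34 on day 2, and it was called under the day block (adjusted p = 0.019). MBR1 and ISF1 thus both had their larger negative difference on day 2, but through different arrays. From day 1 to day 2 MBR1 dropped by 1.22 in V81G and by 0.38 in WT. ISF1 instead was higher on day 2 in WT and changed little in V81G.

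A further 10 genes described with upstream frames were looked up: CPA1, YAP1, CAD1, INO2, PPR1, LEU4, HAP4, TIF4631, CBS1 and PET111. None was called by limma, where 21.5% of all genes were, and 2 of the 10 (PPR1 and LEU4) had an unadjusted p under 0.05, where 36% did. Their differences ran from -0.35 for LEU4, of leucine synthesis, to 0.51 for PPR1, an activator of uracil synthesis genes, with a median of -0.05. The day block called PPR1 alone (adjusted p = 0.025), where it called 30.7% of all genes.

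**Figure D5:**
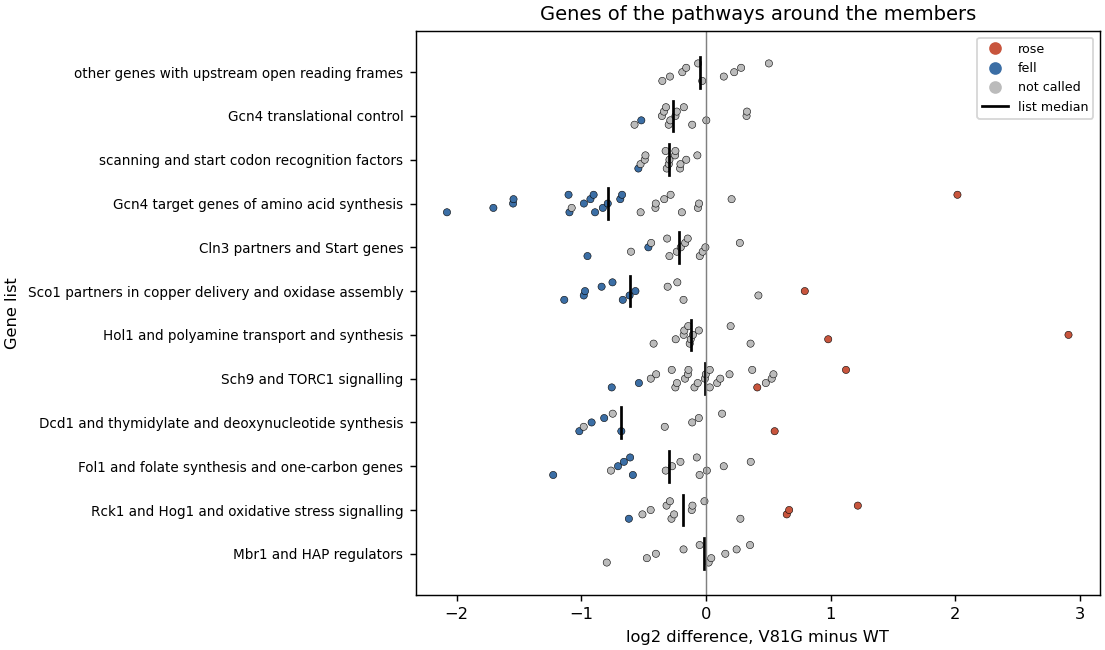
Log2 difference V81G minus WT (x axis) of the measured genes in the 12 lists around the members (y axis), each point a gene, red where it rose, blue where it fell and grey where it did not pass, with a bar at the list's median. The Gcn4 target list (median -0.79) and the deoxynucleotide list (-0.68) lie lowest, and the largest single value is DUR3 at 2.91.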

How the data were processed

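Total RNA of 8 cultures was labelled and hybridised to 1-colour Affymetrix YG_S98 arrays, per the labels and file headers. The deposited values are probe-set intensities on a linear scale made by RMA, per the submitters' processing notes, with no version or log step given. They ran from 89.9 to 44207, and scaling after RMA is unknown. No detection calls were used, and precision is limited by the number of arrays. The run sheets, deposited text of another kind than measurements, gave the hybridization day and fluidics station.

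Here log2 was taken, 60 control probe sets were left out, and 9275 were tested with limma 3.58.1 in R 4.3.3 (lmFit, eBayes, two-sided, label as the only term), checked on simulated data. Of these, 6504 had a single gene, updated by gene ID to the RefSeq table of assembly R64, 328 had several and 2443 were not listed. The brightest probe set stood for a gene (315 of 5656 genes had several). Chromosome and gene order came from R64.

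Deviations from the group means correlated between same-numbered arrays of the labels at r = 0.24, 0.23, 0.44 and 0.26 over probe sets, and numbers of the same day also correlated, so the pairing by number, found in the data, cannot be told apart from the day. No pair of arrays held identical values.

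The members and all lists were chosen with earlier results of these data known, so no list was tested. Named genes were the members, the paralogs, the 2 eIF5A genes, per list up to 2 calls in each direction with separate groups, and the 3 closest profiles per called member. Genes named to complete a count of 5 or fewer, single neighbours and genes that did not pass were named after their values were seen. Sequences were not analysed here.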

Additional observations from a re-analysis of the deposited data

Results flagged for a closer look

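Among 26 groups of 4 arrays (13 probe sets, 2 labels) 4 held an array whose gap to the next exceeded the share of the range set by Dixon's 95% critical value, where chance flags about 1 in 20 groups. SCH9 read 11.17 in V81G replicate 1, and the other V81G arrays 11.78 to 11.88. The FOL1 probe set 2734_s_at read 11.15 in WT replicate 2, with the others from 10.44 to 10.52, and 10.17 in V81G replicate 3, with the others from 10.67 to 10.68. The FOL1 probe set 2735_s_at read 9.60 in WT replicate 1, with the others from 10.06 to 10.16. No probe set of the 9 genes passed the test of a change between the days.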

How the results depend on the processing

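HOL1 kept its direction and an adjusted p under 0.05 in all 22 alternative fits, and SCH9 its direction in 22 and its call in 14; neither reached 2-fold in the reported fit. The number of the 9 genes called, 2 in the reported fit, was 3 with the replicate block, 4 with the day as a block, 4 on day 2 alone, 1 after centring by chromosome and 0 when a 2-fold size was also required. Station alternatives were chosen after seeing the data and gave 5 with day and station as blocks, 4 on station 1 and 1 on station 2, where WT is a single array, of day 2, assumed to vary like the rest and set against V81G arrays of day 1. On station 1 the V81G arrays are all of day 2, while the WT arrays are of both days. Within a label and day only WT replicates 3 and 4 differ in station. A station term therefore also takes up part of any change of the label difference between days, which limits the counts with day and station as blocks. Leaving out an array gave 1 to 3. The count over all probe sets, 1628, was 1858 with the replicate block, 2389 with the day block, 497 with the 2-fold size, 3039 with day and station as blocks and 1131 to 1555 without single arrays.

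The median of the 9 differences, -0.06, was 0.033 on day 1, 0.057 after renewed quantile normalization, 0.031 after centring by chromosome, 0.055 on station 1, 0.14 on station 2 and -0.10 to 0.0045 without single arrays. Signs turned for RCK1 (0.033 on day 1, 0.047 by chromosome, 0.10 on station 1, -0.13 to 0.061 without single arrays), CLN3 (0.10 on day 1, 0.15 by quantiles, 0.031 by chromosome, 0.18 on station 2, -0.17 to 0.054 without single arrays) and GCN4 (0.057 by quantiles, 0.055 on station 1). They also turned for MBR1 (0.14 on station 2) and in FOL1 for 2734_s_at (0.0074 by chromosome, 0.20 on station 2, -0.17 to 0.068 without single arrays), 9138_at (0.0017 on station 1) and 2732_at (-0.0036 on day 1, -0.32 on station 1, -0.043 to 0.30 without single arrays). The ratio of MBR1 to ISF1 changed by -0.0042 to 0.50 without single arrays, that of SCO1 to SCO2 by -0.51 to -0.24, and that of RCK1 to RCK2 by 0.20 to 0.44. The causes were not tested. Dim signal limits RCK1 and the FOL1 probe set 2732_at.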

Other observations

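The members moved between hybridization days within a label. From day 1 to day 2 MBR1 dropped by 1.22 in V81G and by 0.38 in WT. SCO1 dropped by 0.65 in WT and was higher by 0.35 in V81G. DCD1 was higher by 0.79 in V81G and by 0.12 in WT. CLN3 dropped by 0.52 in V81G and by 0.22 in WT, and GCN4 was higher by 0.22 and 0.36. Of 11 mating-type genes 3 rose in V81G and 8 did not pass, where 9.21% of all genes rose. The risen ones were STE2 (1.14 ± 0.13, adjusted p = 4.1e-04), an a-cell receptor gene whose WT mean of 8.11 lay under the dim limit, SAG1 (1.77 ± 0.13, adjusted p = 4.3e-05), the alpha-agglutinin gene, and STE6 (0.61 ± 0.17, adjusted p = 0.036), the a-factor exporter gene. MF(ALPHA)1 differed by -0.60 ± 0.32 without passing (adjusted p = 0.25).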
